A study of Mus musculus with 16 samples.

Results

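Mouse embryos carrying a deletion in the 3′ untranslated region of Kpnb1, which encodes importin β1, were compared with wild types, gene by gene. The developmental maturity of each library was taken into account. The comparison used 12 of the 16 RNA libraries of the series: 4 knockouts with the deletion (KO_beta) and 8 wild types. Of the wild types, 4 carry the label of the importin β1 line (WT_beta) and 4 the label of an importin α3 line (WT_alpha3). All 12 libraries came from lumbar dorsal root ganglia, which hold the cell bodies of sensory neurons, of C57BL/6 embryos at embryonic day 13.5. The embryos were without treatment, and polyA-selected RNA was sequenced. The design text of the series says that the wild types of both lines served both knockouts because of a sex effect, so all 8 were the controls here. Libraries were chosen by their genotype labels alone and are called by group and title number. How much of the untranslated region was deleted, and whether each library is a separate embryo, is not given in the sources used here. The p-values below therefore reflect the spread between libraries, which may in part be technical.

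Importin β1, the product of Kpnb1, carries cargo through the nuclear pore, either directly or through an importin α adaptor that recognises the nuclear localization signal, and the small GTPase Ran releases the cargo inside the nucleus. In sensory neurons a form of the Kpnb1 transcript with a long 3′ untranslated region travels into the axon, where it can be translated after injury and where importin β1 takes part in signals that travel back to the cell body. Maturity was read from the embryonic globins: Hbb-bh1 and Hbb-y are β-like globin genes of embryonic red blood cells, and the Hbb-bh1 share falls as the embryo matures. The numeric covariate of every fit was therefore log2(Hbb-bh1 count / Hbb-y count), called the globin ratio below, where a higher value stands for a younger library. The ratio comes from blood cells in the tissue and stands in for embryo age, which was not measured otherwise.

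The knockouts lay at the mature end of the wild-type range. The globin ratio was -6.06 in KO_beta 398, -6.35 in KO_beta 402, -6.45 in KO_beta 406 and -7.00 in KO_beta 411. In WT_alpha3 it was -4.79 in library 45, -6.93 in 54, -6.71 in 55 and -4.10 in 79, and in WT_beta -5.17 in 399, -6.04 in 401, -6.89 in 410 and -6.63 in 415. The 4 wild types 45, 79, 399 and 401 lay above every knockout, and only KO_beta 411 lay below every wild type. The means were -6.46 ± 0.39 in KO_beta (SD, n = 4) and -5.91 ± 1.09 in the wild types (SD, n = 8), so the slope on the ratio at its upper end rests on wild types alone. Results are also given without these 4 libraries, called the 4 younger wild types below, where that matters. They were set apart for high levels of markers of other cells, and 401 lay barely above KO_beta 398. Leaving them out therefore does not separate maturity from the share of other cells.

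**Figure D1:**
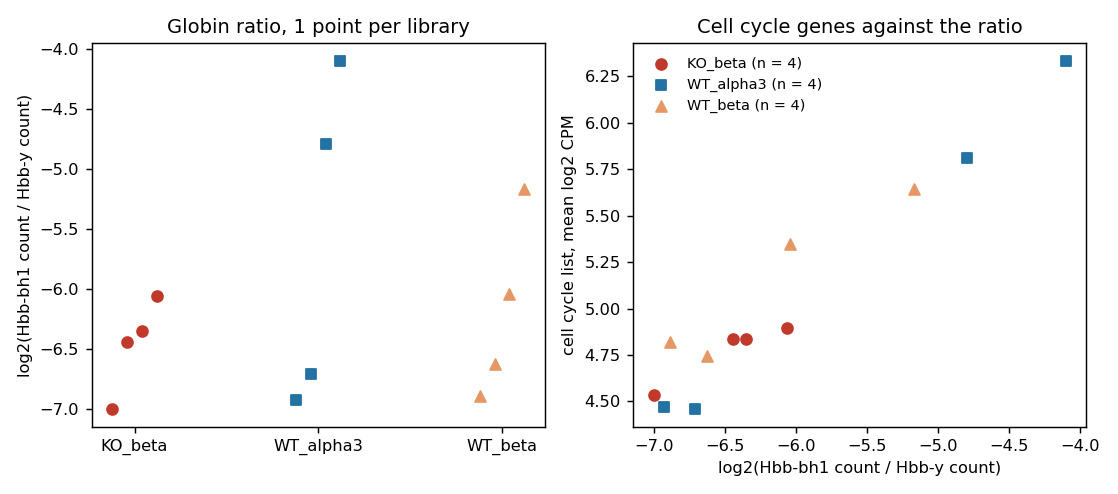
Left, globin ratio, log2(Hbb-bh1 count / Hbb-y count), of each of the 12 libraries by group; right, cell cycle genes as their mean log2 CPM (y axis) against that ratio (x axis), 1 point a library in both. The 4 knockouts lie between -7.00 and -6.06 and the 8 wild types between -6.93 and -4.10, with 4 wild types above every knockout, and the libraries of highest ratio are also highest in cell cycle genes.

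Library totals ran from 21203919 to 26873361 counts in KO_beta and from 19682595 to 25841307 in the wild types. The tissue label held in the marker genes: all 12 defining markers of a sensory ganglion were expressed, the lowest being Ntrk3 with a mean of 35.8 CPM (read counts brought to a total common to all libraries), and their summed level was 5450 to 6221 CPM in KO_beta and 2956 to 6739 CPM in the wild types. The 4 Y-linked genes used as a check of embryo sex summed to 132 to 142 CPM in KO_beta and 105 to 131 CPM in WT_alpha3, but to at most 1.15 CPM in WT_beta, so against WT_beta alone sex and genotype cannot be told apart. X- and Y-linked genes were fitted with the rest and left out of every count below.

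With maturity in the model, no autosomal gene passed. In edgeR's quasi-likelihood test, adjusted by the Benjamini-Hochberg method over all 15569 genes tested, 0 of 14978 autosomal genes (0%) had an adjusted p under 0.05, and the smallest adjusted p was 0.9999. At an unadjusted p under 0.05 there were 218 genes (1.46%), 60 higher in KO_beta (0.401%) and 158 lower (1.05%). This is fewer than the 5% that evenly spread p-values would give, with the wild types of both lines pooled. Against WT_beta alone 794 of 14790 autosomal genes were under 0.05, and against WT_alpha3 alone 974 of 14628, both above that share. With the line of the wild types as a further term in the pooled fit there were 266 of 14978, again fewer than 5%. The share of lower genes, 72.5% of the 218, moved with the libraries used: without KO_beta 406 there were 154 higher and 133 lower, without KO_beta 411 there were 83 higher and 108 lower, and against WT_beta alone 368 higher and 426 lower. DESeq2 with the same covariate called 2 autosomal genes, Kpnb1 and Kctd10, both described below.

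For most genes the fit also gave a bound on the difference from the pooled wild types. The median log2 fold change over the 14978 autosomal genes was -0.0045, with 47.3% above 0 and 52.7% below, and the median standard error (SE) was 0.10. For 73.6% of these genes the 95% confidence interval of the log2 fold change lay wholly between -0.5 and 0.5, and for 91.2% between -1 and 1. Among the 10308 genes with at least 10 CPM in the wild types the shares were 93.1% and 98.7%. These intervals are per gene and not adjusted for the number of genes. They hold for the pooled wild types and a slope common to all libraries, not for the wild types of each line alone.

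**Figure D2:**
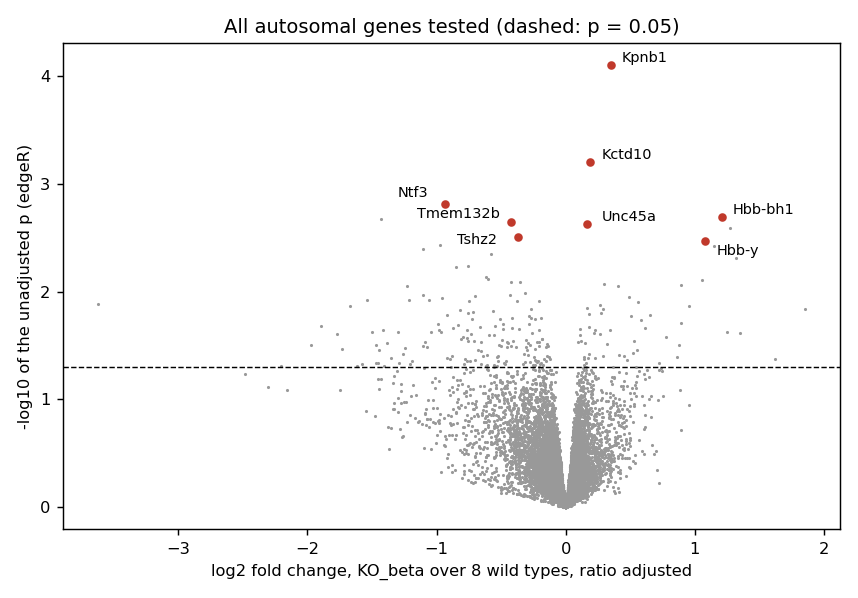
Log2 fold change of KO_beta over the 8 wild types with the globin ratio as covariate (x axis) against -log10 of the unadjusted edgeR p (y axis), 1 point for each of the 14978 autosomal genes tested. The dashed line is an unadjusted p of 0.05 and genes of lowest p are labelled in red, Kpnb1 at the top, while 0 genes pass after adjustment.

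The globin ratio itself went with much of the transcriptome. Across the 12 libraries, 6000 autosomal genes (40.1%) had a slope on the ratio with an adjusted p under 0.05 in edgeR, 2886 of them (19.3%) with a higher level in younger libraries. The 218 genes with an unadjusted p under 0.05 for the knockout were not richer in such genes: 86 of them (39.4%) had a slope that passed. Without the covariate, 0 autosomal genes passed as well, with 70 higher (0.467%) and 234 lower (1.56%) at an unadjusted p under 0.05.

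Kpnb1, the targeted gene, had the lowest p of all autosomal genes, and its level was higher, not lower, in the knockouts. It was at 513 CPM in KO_beta 398, 517 in 402, 524 in 406 and 563 in 411, while the wild types ran from 389 to 539 CPM with a median of 428. A single wild type, WT_alpha3 79, lay above the lowest knockout. The means were 530 ± 22.8 CPM (SD, n = 4) and 440 ± 52.7 CPM (SD, n = 8), and an exact 2-sided permutation test of log2(CPM + 1) without the covariate gave p = 0.0162 over 495 splits, of which the smallest possible p is 0.00202.

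With the covariate the Kpnb1 difference was larger. Kpnb1 levels went up with the globin ratio across libraries, with a slope of 0.13 ± 0.03 log2 units per unit of ratio (edgeR, adjusted p = 0.00748), and the wild type above the lowest knockout was also the one with the highest ratio. Within the 4 knockouts the order was the opposite, with the highest Kpnb1 level at the lowest ratio, so the common slope does not describe the knockouts among themselves. Moved to a common ratio along this slope, the knockouts lay at log2(CPM + 1) levels of 9.003 to 9.255 and the wild types at 8.674 to 8.858, with no overlap. The log2 fold change was 0.35 ± 0.06 (SE; 95% interval 0.22 to 0.48), or 27.3% higher, with an unadjusted p of 7.97e-05 and an adjusted p of 0.9999 in edgeR. It was 0.27 without the covariate, 0.32 ± 0.07 against WT_beta alone, 0.35 ± 0.08 against WT_alpha3 alone and 0.45 without the 4 younger wild types. DESeq2 gave 0.35 ± 0.06 with an adjusted p of 2.32e-05, so the call depends on the tool while the size does not.

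Non-overlap of this kind was rare: at a common globin ratio 23 autosomal genes (0.154%) separated all knockouts from all wild types, 10 of them with higher knockouts (0.0668%). Kpnb1 lies on the minus strand of chromosome 11 from 97159714 to 97187881 (mm10). Its protein-coding transcript in GENCODE M21 has 22 exons and 5894 exonic bases, of which the 3′ untranslated region, from 97159714 to 97162680, takes 2967 (50.3%). Counts were taken over the whole gene, so reads from the untranslated region and from the coding region are not separated, and the value does not check the deletion. Of the 49 other autosomal genes tested within 1 Mb of Kpnb1, 0 passed and 2 had an unadjusted p under 0.05, beside 1.46% of all autosomal genes, and their log2 fold changes ran from -0.71 to 0.28 with a median of 0.00.

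**Figure D3:**
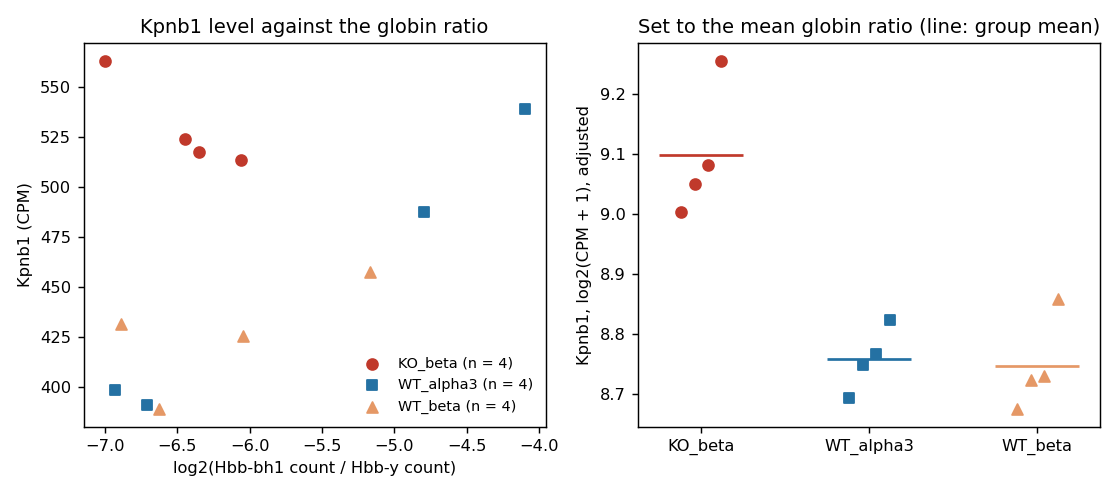
Left, Kpnb1 level in CPM (y axis) against the globin ratio (x axis), 1 point a library coloured by group; right, log2(CPM + 1) of the same libraries moved to the mean ratio, with lines at the group means (n = 4 each). The knockouts, at 513 to 563 CPM, lie above the wild types of like ratio, and at the mean ratio they do not overlap the wild types.

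None of the other genes of nuclear transport passed. The list of import and export receptors and Ran had 31 autosomal genes tested, 19 higher and 12 lower with 0 passed, and a median log2 fold change of 0.00, which turned negative (-0.01) when only library size was used for scaling. Apart from Kpnb1, the 30 others ran from -0.16 (Xpo4) to 0.10 (Xpo7, chosen after its value was seen), with a smallest unadjusted p of 0.113, and all 30 had a 95% interval within -0.5 to 0.5. Xpo4, a receptor of the importin β family that exports and imports cargo, was at 16.7, 15.7, 11.5 and 14.8 CPM in KO_beta 398, 402, 406 and 411 and at 14.91 to 21.04 CPM in the wild types (median 16.9), and its log2 fold change was -0.063 without KO_beta 406. Of the 29 nucleoporins, which build the pore, 10 were higher and 19 lower with 0 passed and a median of -0.01. Ndc1, which anchors the pore in the membrane, had the lowest p among them, at -0.16 ± 0.08 (adjusted p = 0.9999), and Nup93, a scaffold of the inner ring, was at 0.10 ± 0.06.

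Among genes higher in KO_beta by the lowest p, Kctd10 and Unc45a had the narrowest spread. Neither passed in edgeR. Kctd10, an adaptor of cullin-3 ubiquitin ligases (chromosome 5, 114363572 to 114380505, RefSeq GRCm38.p6), was at 110.0, 110.5, 109.2 and 108.7 CPM in KO_beta 398, 402, 406 and 411, against 91.7 to 101 CPM in the wild types with a median of 95.4. All knockouts lay above all wild types, also without the covariate. Its log2 fold change was 0.19 ± 0.04 in edgeR (adjusted p = 0.9999), or 14.3% higher, and 0.19 ± 0.04 in DESeq2, where its adjusted p of 0.0102 passed. Leaving out each library in turn kept it between 0.18 and 0.21.

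Unc45a, a chaperone of myosin, was at 99.7, 102, 104 and 106 CPM in the same order, against 82.8 to 95 CPM in the wild types (median 91.2). Again the groups did not overlap, and the log2 fold change was 0.17 ± 0.04 (edgeR adjusted p = 0.9999). Kcnrg, a regulator of potassium channels, was low but also separate, at 1.43, 1.48, 2.10 and 1.65 CPM against 0.878 to 1.31 CPM (median 1.16), a log2 fold change of 0.49 ± 0.17. Sfi1, a centrosome protein, lay at 31.6, 24.3, 21.2 and 29.4 CPM against 15.8 to 23.6 CPM (median 21.3), which overlaps, with 0.40 ± 0.13. Pabpc1l, a relative of the cytoplasmic poly(A)-binding protein, was at 2.63, 1.78, 2.003 and 2.05 CPM against 1.18 to 2.20 CPM (median 1.46), with 0.56 ± 0.19.

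Col9a3, a chain of the cartilage collagen IX, was the highest-ranked collagen. It was at 42.3, 40.1, 42.3 and 46.3 CPM in KO_beta 398, 402, 406 and 411 and at 15.7 to 41.0 CPM in the wild types (median 34.0), and across the 12 libraries it was lower at a higher globin ratio (slope -0.40 ± 0.05, edgeR adjusted p = 0.000305). Its log2 fold change was 0.30 ± 0.09 with the covariate and 0.47 without it.

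The remaining genes among the 10 with the lowest p on the higher side moved with the globin ratio. Hbb-bh1 and Hbb-y, at 1.21 ± 0.31 and 1.08 ± 0.30, form the covariate, so their values are no finding. Pdzk1ip1, a small membrane protein that binds PDZ domains, was at 9.15, 4.15, 2.003 and 0.827 CPM in the knockouts and 0.978 to 15.9 CPM in the wild types. Its log2 fold change was 1.15 ± 0.32 with the covariate and -0.18 without it, and its slope on the ratio was 1.5 ± 0.17, so its sign rests on the adjustment. Without KO_beta 398 the adjusted value was 0.61.

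**Figure D4:**
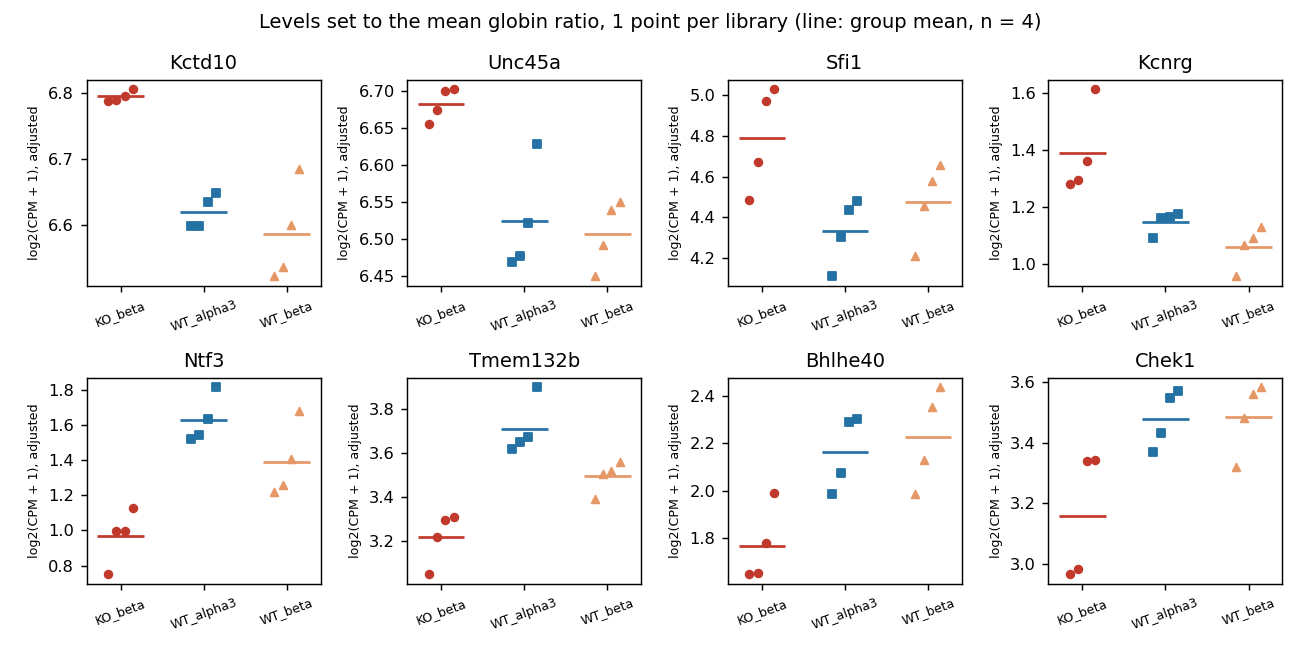
Levels of 8 leading genes, log2(CPM + 1) moved to the mean globin ratio (y axis, not from 0), 1 point a library and 1 panel a gene, with lines at the group means (n = 4 each). Kctd10, Unc45a and Kcnrg show knockouts wholly above the wild types, Ntf3 and Tmem132b wholly below, and none of them passed in edgeR.

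On the lower side, Ntf3, the gene of the neurotrophin NT-3, which binds the receptor TrkC of proprioceptive neurons, had the lowest p. It was at 0.677, 1.23, 1.05 and 1.142 CPM in KO_beta 398, 402, 406 and 411 and at 1.22 to 2.75 CPM in the wild types, with a median of 1.71. Only KO_beta 402 reached into the wild-type range, and at a common globin ratio no knockout did, as in 13 autosomal genes (0.0868%). The log2 fold change was -0.94 ± 0.23 (edgeR adjusted p = 0.9999), with -0.78 ± 0.27 against WT_beta and -1.15 ± 0.24 against WT_alpha3.

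The next genes of the lower side did not pass either. Bhlhe40, a basic helix-loop-helix repressor, was at 2.45, 2.07, 2.86 and 1.93 CPM against 2.72 to 4.51 CPM in the wild types (median 3.65), with -0.58 ± 0.17. Tshz2, a teashirt zinc finger factor, was at 77.8, 72.4, 71.0 and 90.9 CPM against 71.1 to 130 CPM (median 88.1), with -0.37 ± 0.10. For Bhlhe40 only KO_beta 406 overlapped the wild types, while Tshz2 overlapped widely before adjustment. Caly, which takes part in vesicle uptake, was at -0.85 ± 0.26, and Grin3a, an NMDA receptor subunit, at -0.42 ± 0.13.

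Tmem132b, a transmembrane protein, was at 8.77, 8.63, 7.68 and 10.2 CPM against 8.30 to 15.2 CPM in the wild types (median 10.5). At a common ratio all its knockouts lay below all wild types, with -0.42 ± 0.11. Rnaset2b, a ribonuclease with a near-identical copy and therefore of uncertain count, had -0.62 ± 0.19, and Clec1a, a C-type lectin receptor, -0.60 ± 0.19. Chek1, a kinase of the DNA damage checkpoint, and Hmmr, a spindle protein of dividing cells, had -0.35 ± 0.11 and -0.32 ± 0.10 with the covariate, against -0.76 and -0.83 without it. All of these genes had an adjusted p of 0.9999 in edgeR.

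The medians of proliferation and progenitor genes lay nearer 0 with the covariate than without it. Of the 41 cell cycle and DNA replication genes, 41 were lower in KO_beta without the covariate, beside 53.3% of all autosomal genes, with a median log2 fold change of -0.58. With it 40 were lower and 1 higher, but the median was -0.10 and 0 passed, beside 52.7% of all autosomal genes below 0. All 41 had a slope on the globin ratio that passed, beside 40.1% of all autosomal genes. The list mean was 4.535 to 4.895 log2 CPM in KO_beta and 4.458 to 6.334 in the wild types, and it went up with the ratio in the plot of cell cycle genes against it. The median was -0.22 against WT_beta alone, 0.06 against WT_alpha3 alone and 0.02 without the 4 younger wild types, so its sign rests on which wild types are used.

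Ccne1, the cyclin of the G1 to S step, was at 16.1, 14.3, 16.7 and 12.2 CPM in KO_beta 398, 402, 406 and 411 and 14.1 to 38.5 CPM in the wild types (median 19.2), with -0.27 ± 0.12. Mcm2, part of the replicative helicase, had -0.14 ± 0.09. Among 36 progenitor, neurogenesis and Notch genes, 27 were lower with the covariate, beside 52.7% of all autosomal genes, and 0 passed. Their median was -0.52 without the covariate and -0.13 with it. That median was -0.044 without KO_beta 398 and -0.016 against WT_alpha3 alone. Neurog2, which starts sensory neurogenesis, was at 0.414, 0.423, 0.525 and 0.276 CPM and at 0.309 to 7.15 CPM in the wild types (median 1.142), with -1.45 ± 0.61. The Hox genes, which mark position along the body, had 29 of 35 lower, beside 52.7% of all autosomal genes, and 0 passed. Their median was -0.11, against -0.39 without the covariate, and -0.18 without WT_beta 399. The mean log2(CPM + 1) of the list was 3.52 in WT_beta 399, 4.68 in WT_beta 401 and 3.96 to 4.28 in KO_beta.

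Markers of sensory neurons differed little from the pooled wild types with maturity in the model. Of 28 pan-sensory genes 20 were higher, with a median of 0.04 and 0.15 without the covariate, and of 25 nociceptor genes 16 were higher, with a median of 0.09 and 0.25 without it. The small medians depended on pooling: against WT_beta alone, with the covariate kept, they were 0.11 and 0.22. Against WT_alpha3 alone both medians were below 0, at -0.02 and -0.06, and the nociceptor median was -0.0035 without KO_beta 398. Scn9a, the sodium channel Nav1.7 of pain neurons, was at 789, 647, 530 and 741 CPM in KO_beta 398, 402, 406 and 411 and 305 to 665 CPM in the wild types (median 566), with 0.24 ± 0.14. Without KO_beta 398 that value was 0.09, and without the 4 younger wild types 0.10. Isl1, a transcription factor of sensory neurons, had 0.11 ± 0.08.

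A few neuronal markers lay on the lower side without passing. Calca, the gene of the nociceptor peptide CGRP, was at 1.54, 2.28, 2.29 and 1.77 CPM against 0.650 to 5.09 CPM in the wild types (median 2.60), with -0.55 ± 0.25. Calb2, the calcium-binding protein calretinin, had -0.52 ± 0.21, and the 30 mechanoreceptor and proprioceptor genes had 11 higher and 19 lower with a median of -0.04. Of 62 voltage-gated channel genes, 34 were higher and 28 lower with a median of 0.01, against 0.14 without the covariate. With the covariate kept, the channel median was 0.14 against WT_beta alone and -0.08 against WT_alpha3 alone. Kcnf1, a modifier of potassium channels, was low and overlapped, at 0.38 to 0.76 CPM against 0.50 to 1.34 CPM, with -0.96 ± 0.32. Cacna1g, a T-type calcium channel, was at 27.3, 35.7, 28.9 and 21.8 CPM against 26.2 to 67.4 CPM (median 40.4), with -0.48 ± 0.21. Synaptic vesicle genes had a median of 0.01, with 26 of 46 higher. Their median was 0.12 against WT_beta alone and -0.12 against WT_alpha3 alone. Unc13b, a vesicle priming factor, had 0.15 ± 0.07, and 0.079 without KO_beta 398.

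Glia and the functions tied to axonal importin β1 had medians near the median of all genes. Of 29 glial and Schwann cell precursor genes 19 were higher, with a median of 0.03. Ednrb, the endothelin receptor of glial precursors, was at 591, 609, 627 and 564 CPM against 413 to 644 CPM (median 528), with 0.19 ± 0.11, while Pou3f2, also a factor of developing neurons, was at 2.48, 2.58, 1.86 and 2.28 CPM against 2.94 to 26.9 CPM (median 4.90), with -1.08 ± 0.45. Its raw levels did not overlap, but its adjusted levels did. Of 36 genes of retrograde transport and injury signalling 21 were higher, with a median of 0.01 and 0 passed. Vim, the intermediate filament vimentin of that list, was at 2133, 2288, 2384 and 1952 CPM against 1754 to 2161 CPM (median 2031), with 0.14 ± 0.08.

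Lists on axon growth and on RNA handling had medians near 0 as well. Axon growth genes had 15 higher and 16 lower of 31 with a median of -0.01, and Klf4, which restrains axon growth, had -0.33 ± 0.16. RNA localization genes had 18 higher and 20 lower of 38 with a median of -0.0026, and Nova1, a neuronal splicing factor, had -0.87 ± 0.47, which was -0.52 without WT_beta 415 and -0.26 against WT_alpha3 alone. Genes of polyadenylation had 19 higher and 12 lower of 31 with a median of 0.01. No gene of these lists passed.

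Housekeeping and stress genes had small medians with no gene passing. The 72 cytoplasmic ribosomal protein genes were 60 higher and 12 lower, beside 47.3% of all autosomal genes above 0, with a median of only 0.03, and without the covariate 71 of them were lower, with a median of -0.10. Scaling by library size alone gave 52 higher and 20 lower, and the median was -0.05 without KO_beta 406. The 72 respiratory chain genes were 37 higher and 35 lower with a median of 0.00, and growth control and translation factors 20 higher and 24 lower of 44 with a median of -0.0042. Cholesterol synthesis genes had a median of 0.04 (20 of 30 higher), and apoptosis and p53 target genes 0.03 (23 of 35 higher), among them the damage-response gene Gadd45a at 0.15 ± 0.10. Unfolded protein and heat shock genes were at -0.03 (22 of 33 lower), and integrated stress response genes at 0.01 (19 of 33 higher), where the mitochondrial enzyme Pck2 had -0.21 ± 0.10. Immediate early genes had 23 of 30 lower, beside 52.7% of all autosomal genes, with a median of -0.11 and 0 passed. Their median was -0.21 without KO_beta 406 and -0.07 without KO_beta 398.

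**Figure D5:**
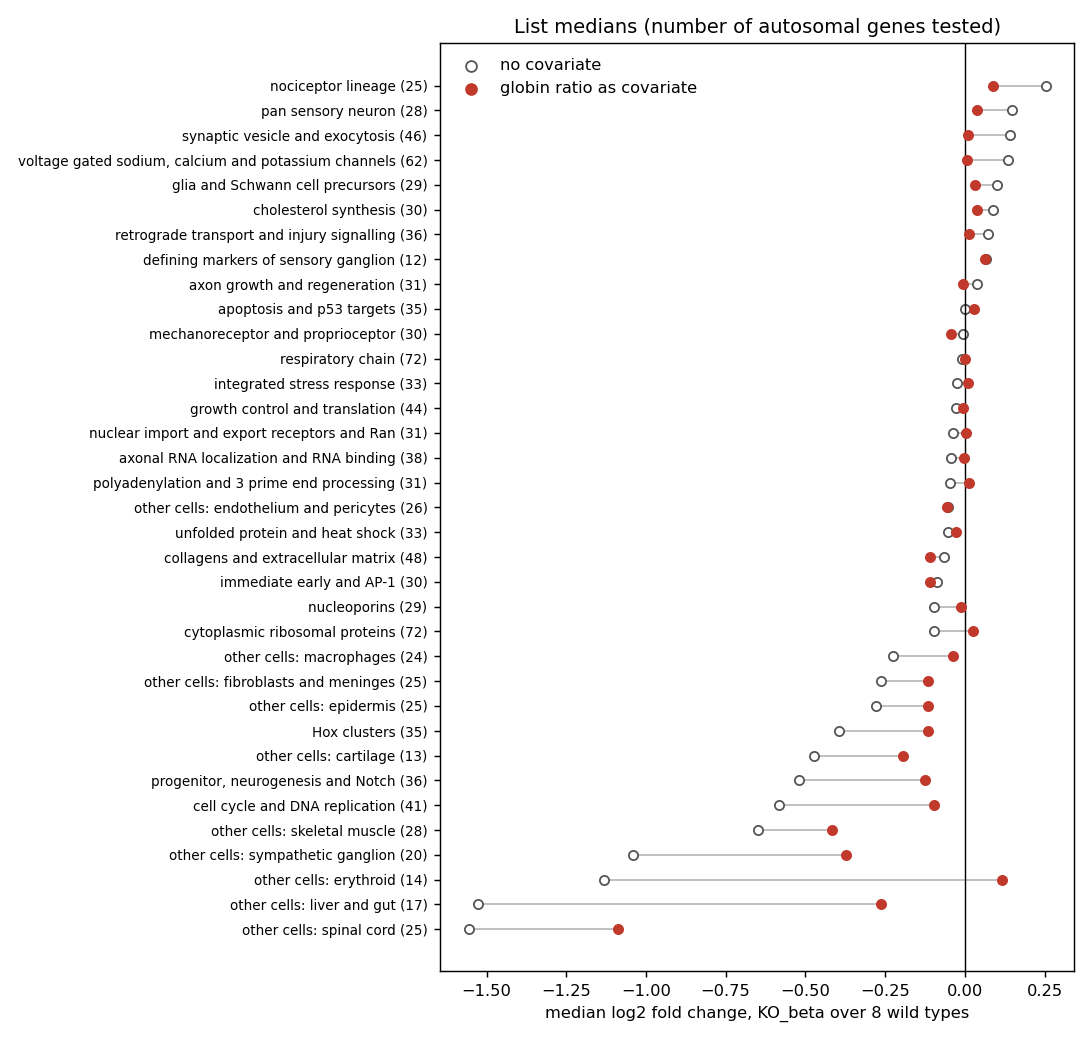
Median log2 fold change of KO_beta over the 8 wild types for each gene list, with the globin ratio in the model and without it, and the number of autosomal genes tested in each list. In 30 of the 35 lists the median lies nearer 0 with the covariate, and the 5 lowest medians all belong to lists of other cell types.

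Of the 35 lists, 30 had a median between -0.13 and 0.12 with the covariate, and the 5 below that all hold markers of cells from outside the sensory ganglion. Spinal cord markers stood lowest, with 24 of 25 lower, beside 52.7% of all autosomal genes, and a median of -1.09. Their summed level was 22.9 to 50.0 CPM in KO_beta and 28.5 to 184 CPM in the wild types, the highest in WT_beta 401. Evx1 and Ptf1a of the list were at 0 in all knockouts, as were Ucma among cartilage and Cdx1 among liver and gut markers. Ptf1a and Ucma, each the lowest of its list, averaged only 0.028 and 0.0096 CPM, so a 0 there says little. The share of all autosomal genes at 0 in every knockout is not given here, so no loss is read from these zeros. Lhx5, a factor of spinal interneurons, was at 2.26, 2.24, 1.144 and 0.197 CPM against 1.04 to 19.1 CPM (median 3.97), with -1.58 ± 0.71, and Pax8 had -1.29 ± 0.58. Without WT_beta 401 these values were -1.003 and -0.77. The median was -0.21 against WT_alpha3 alone, -1.78 without the 4 younger wild types and -0.53 without WT_beta 401. In bulk tissue fewer cells of a type and less RNA per cell cannot be told apart.

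The other low medians also moved with single libraries. Skeletal muscle markers were 28 of 28 lower, beside 52.7% of all autosomal genes, with a median of -0.42. Their summed level was 124 to 477 CPM in KO_beta against 146 to 1480 CPM, the highest again WT_beta 401. Without that library the median was -0.07, and against WT_alpha3 alone it was 0.20. Chrnd, a subunit of the muscle acetylcholine receptor, was low, at 0.12 to 0.81 CPM in KO_beta against 0.42 to 4.63 CPM. It had -1.46 ± 0.72, and -0.77 without WT_beta 401. Sympathetic ganglion markers had a median of -0.37, which was 0.08 without the 4 younger wild types and 0.07 without WT_beta 401. Liver and gut markers had a median of -0.26, which was 0.46 without WT_beta 399, where they summed to 5447 CPM, and -1.14 without KO_beta 398. Cartilage markers had a median of -0.19, with 6 higher and 7 lower, which was 0.20 against WT_alpha3 alone and -0.02 without WT_beta 401.

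The remaining lists of other cells lay closer to 0 and none had a gene that passed. Fibroblast and meningeal markers had 22 of 25 lower, beside 52.7% of all autosomal genes, with a median of -0.11, which was 0.0025 without KO_beta 398. Their sum was 797 to 1073 CPM in KO_beta and 831 to 1606 CPM in the wild types. Collagen and matrix genes were also at -0.11, with 31 of 48 lower, and Thbs1, a thrombospondin of that list, was at 10.01, 13.96, 10.3 and 9.30 CPM against 8.51 to 38.4 CPM (median 17.6), with -0.68 ± 0.29, and -0.42 without WT_alpha3 55. Without WT_beta 401 the matrix median was -0.02. Endothelial, macrophage and epidermal markers had medians of -0.06, -0.04 and -0.12. The endothelial median was 0.02 without KO_beta 398 and the epidermal median -0.0025 without WT_alpha3 55. Itgam, an integrin of macrophages, had -0.47 ± 0.21. Erythroid markers, which include both globins of the covariate, had a median of 0.12 with it and -1.13 without it, and -0.27 without KO_beta 398. The part of these cells in the differences of single genes was not tested.

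Against the wild types of each line alone, the calls depended on the wild types used. WT_alpha3 shared the Y-linked signal of the knockouts but not their line, and WT_beta shared their line but not that signal. Line and sex therefore cannot be told apart here, nor in the line term below. Against WT_beta 0 of 14790 autosomal genes passed, with 368 higher (2.49%) and 426 lower (2.88%) at an unadjusted p under 0.05. Against WT_alpha3, 5 of 14628 passed (0.0342%), 2 higher and 3 lower, with 372 higher (2.54%) and 602 lower (4.12%) at that unadjusted p. They are 2 unnamed loci, Gm3893 and 1500015A07Rik, and the genes Zfp932, Rab3gap1 and Eno2, all chosen after their values were seen.

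These genes were picked by their difference from WT_alpha3, so the levels of the 3 groups are given as a description. Zfp932, a zinc finger gene of a large family, was at 32.7 CPM in KO_beta, 33.7 in WT_beta and 14.5 in WT_alpha3, with a log2 fold change of 1.29 ± 0.12 against WT_alpha3 (edgeR adjusted p = 0.00856) and -0.05 ± 0.10 against WT_beta. Rab3gap1, which regulates Rab proteins, was at 23.1, 25.3 and 36.9 CPM in the same order, and Eno2, the neuronal enolase, at 58.8, 54.8 and 86.2 CPM. Gm3893 was at 22.8, 29.4 and 0.748 CPM, and 1500015A07Rik at 3.98, 3.96 and 15.7 CPM. For Eno2 the WT_alpha3 spread was wide, at ± 62.0 CPM (SD, n = 4), and the value against WT_beta was 0.00 ± 0.15. With the line of the wild types as a further term, 2 autosomal genes passed (0.0134%), again Gm3893 and 1500015A07Rik. Kpnb1 was higher by a like amount against each line, as given above.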

How the data were processed

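RNA sequencing counts of 12 of the 16 libraries were used. Per gene symbol the authors deposited raw, whole-number counts and a normalized signal (the counts scaled per library), which served in 1 alternative. The submitters' processing notes name the build mm10 and, in no stated order, DESeq2 1.6.3, HTSeq 0.6.1p1, TopHat2 2.0.10, bcl2fastq 2.17.1.14 and cutadapt. Neither annotation nor strand setting is given in the sources used here. Reads of overlapping or antisense genes may therefore be mixed, and those of near-identical copies are uncertain.

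edgeR 4.0.16 (R 4.3.3) was run on the counts with TMM scaling, filterByExpr (minimum count 10, minimum total 15), quasi-likelihood fits of group plus the centred globin ratio, and Benjamini-Hochberg adjustment of 2-sided p-values at 0.05 over all 15569 genes kept, of which 14978 were autosomal, 558 X- or Y-linked and 33 without a chromosome. Symbols were matched to RefSeq GRCm38.p6 and GENCODE M21 (24326 of 24421). Levels are CPM after TMM scaling, and adjusted levels are log2(CPM + 1) moved to the mean ratio along a least-squares slope. Lists are described by counts and medians beside all autosomal genes. Within groups, no pair of libraries was alike within sampling noise, so none was a resequenced copy of another. Whether libraries share an embryo cannot be seen from this. Alternatives were other covariates, wild types, scalings, filters and tools (DESeq2 1.42.0, limma 3.58.1), and leaving out each library. The code was tested on simulated data.

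The comparison, the 35 lists and the rules were chosen with earlier results of these data known. Genes were named by this rule: Kpnb1, the 10 of lowest p in each direction where fewer than 5 passed (mean of at least 1 CPM, no predicted loci), and 2 of lowest p per list, of which the text names a part. No sequence is shown, since the labels do not say which bases were deleted.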

Additional observations from a re-analysis of the deposited data

Results flagged for a closer look

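Among the named genes, 147 groups of 4 libraries were examined for a library far from the other 3 of its group, and chance alone gives about 1 in 20 such groups. There were 7 cases. In KO_beta, Ndc1 was at 15.02 CPM in library 406, below the other 3. In WT_alpha3, library 79 was high for Pou3f2, at 26.9 CPM, and low for Rab3gap1, at 31.8 CPM, and library 55 was high for Klf4, at 17.4 CPM. In WT_beta, library 399 was high for Pdzk1ip1, at 6.11 CPM, and for Gadd45a, at 25.1 CPM, and library 401 was high for Chrnd, at 4.63 CPM.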

How the results depend on the processing

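The count of autosomal genes that passed was 0 in most settings and in every fit that left out 1 library (0 to 0). It was 5 against WT_alpha3 alone, 2 with the line of the wild types as a term and 2 in DESeq2. The count at an unadjusted p under 0.05, 218, became 794 against WT_beta alone, 974 against WT_alpha3 alone and 373 with no filter. Leaving out 1 library gave 169 (without WT_beta 401, and also without KO_beta 398) to 400 (without WT_beta 399), with 337 without WT_beta 410. The log2 fold change of Kpnb1 was above 0 in all 30 alternatives, from 0.27 without the covariate to 0.45 without the 4 younger wild types, and it passed in DESeq2 alone (0.35). Leaving out 1 library gave 0.30 (without KO_beta 411) to 0.38 (without KO_beta 398).

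Of 1050 list medians under alternatives, 6 moved by more than the spread of the wild types: cartilage to -0.47 with no covariate and 0.20 against WT_alpha3 alone, spinal cord to -0.21 against WT_alpha3 alone and -1.78 without the 4 younger wild types, unfolded protein genes to 0.055 without those 4, and the respiratory chain to -0.0496 (without KO_beta 406; up to 0.0442 without KO_beta 398). Signs turned, without the covariate, for Hbb-bh1 (-2.07), Hbb-y (-0.43), Pdzk1ip1 (-0.18), Nup93 (-0.033) and Gadd45a (-0.11), against WT_beta alone for Zfp932 (-0.046) and Eno2 (0.0026), and without the 4 younger wild types for Mcm2 (0.014). Among list medians outside those 6, some also turned sign against WT_alpha3 alone: liver and gut to 1.09, skeletal muscle to 0.20 and cell cycle to 0.06. The cause was not tested. The scalings moved the median of all autosomal genes from -0.0045 to at most -0.0143.

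The planned covariate log2(Hba-x / (Hba-a1 + Hba-a2)) was not run because Hba-a1 and Hba-a2 had 0 counts, and log2(Hba-x / Hbb-y) was used in its place, chosen after seeing the data. No paired analysis was possible because the groups share no replicate numbers.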
